A study of Mus musculus with 6 samples.

Results

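The insulin-like growth factor (IGF) axis was described here through 8 genes chosen by name out of 51361 in the count table. They are the ligand gene Igf1, the receptor genes Igf1r, Igf2r and Insr, the receptor substrate genes Irs1 and Irs2, and the binding protein genes Igfbp4 and Igfbp7. The table holds bulk RNA sequencing of cells sorted as regulatory T cells (Tregs) from young male mice of the C57BL/6N background. All mice, sham controls included, were 9 weeks old and carried Tg(Foxp3-DTR/EGFP)23.2Spar, a transgene in which Foxp3 sequences drive a diphtheria toxin receptor fused to green fluorescent protein, so that Tregs are marked. The 3 groups had 2 libraries each. Tregs came from the brain of mice 14 days after the middle cerebral artery was blocked transiently for 60 min (tMCAO, which models ischemic stroke). Others came from the blood of tMCAO mice at day 14. The third group came from the blood of sham-operated mice, for which the sources used here give no day. The labels list the 2 libraries of a group as separate samples without saying that they came from separate animals, so p-values rest on the spread of 2 libraries a group, and that spread may be technical.

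IGF1 is a peptide hormone and local growth factor. It binds the IGF1 receptor, a tyrosine kinase that phosphorylates the substrates IRS1 and IRS2 and through them turns on phosphoinositide 3-kinase (PI3K), AKT and mTOR. The insulin receptor is the close relative of the IGF1 receptor and can form hybrids with it. The IGF2 receptor, also the cation-independent mannose 6-phosphate receptor, has no kinase, carries lysosomal enzymes to lysosomes and clears IGF2. Binding proteins hold IGFs outside cells: IGFBP4 binds them with high affinity and usually limits their action, while IGFBP7 binds them weakly and is known as a protein of vessels and stroma. In the brain, microglia and other myeloid cells are a known source of IGF1 after injury.

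The promoters of the 3 members of different role whose levels differed in at least 1 comparison, and whose window lay outside annotated exons, are shown as the 250 bases before the start of transcription. Each is read 5′ to 3′ on the strand of the gene, from RefSeq on GRCm38.p6. Capitals mark matches to the motifs searched on both strands. The windows are chr8:11008930-11009179 on the minus strand for Irs2, chr17:12769707-12769956 on the minus strand for Igf2r, and chr11:99040994-99041243 on the plus strand for Igfbp4.
Irs2: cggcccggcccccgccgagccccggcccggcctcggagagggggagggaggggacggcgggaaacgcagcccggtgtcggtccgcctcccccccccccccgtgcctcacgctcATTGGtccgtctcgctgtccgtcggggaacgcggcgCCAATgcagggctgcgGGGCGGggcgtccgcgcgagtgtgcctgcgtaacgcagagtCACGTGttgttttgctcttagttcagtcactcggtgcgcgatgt
Igf2r: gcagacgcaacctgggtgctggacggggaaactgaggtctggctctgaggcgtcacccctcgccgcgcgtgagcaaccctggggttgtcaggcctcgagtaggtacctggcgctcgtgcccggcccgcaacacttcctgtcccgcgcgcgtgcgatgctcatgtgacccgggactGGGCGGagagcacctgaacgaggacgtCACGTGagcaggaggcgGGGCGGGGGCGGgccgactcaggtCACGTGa
Igfbp4: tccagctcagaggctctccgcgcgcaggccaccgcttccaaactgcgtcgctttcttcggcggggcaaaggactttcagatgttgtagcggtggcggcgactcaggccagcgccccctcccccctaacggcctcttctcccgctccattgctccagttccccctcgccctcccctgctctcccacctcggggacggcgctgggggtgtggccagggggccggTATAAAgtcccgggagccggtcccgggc

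The motifs searched were TGACGTCA (the cAMP response element), CCAAT (the CCAAT box), GGGCGG (the GC box), CACGTG (the E-box), TGTTTAC (a forkhead motif), GAGGAA (an ETS-type motif of PU.1) and TATAAA (the TATA box). Of 32851 mouse promoter windows of the same length, 1.55% held TGACGTCA, 33.8% CCAAT, 32.7% GGGCGG, 6.02% CACGTG, 3.17% TGTTTAC, 23.3% GAGGAA and 12.4% TATAAA. The Irs2 window held 2 CCAAT boxes (1 of them on the other strand, printed ATTGG), 1 GC box and 1 E-box. The Igf2r window held 3 GC boxes, the last 2 side by side, and 2 E-boxes. The Igfbp4 window held a TATA box and none of the other 6 motifs. The share of G and C was 72.8% in the Irs2 window, 69.2% in the Igf2r window and 69.2% in the Igfbp4 window, against a median of 52.4% over all windows. A match describes these letters and is not a measured binding site. RefSeq windows were found for 7 of the 8 members.

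Library totals ranged from 14348179 to 24460894 counts, and 16657 genes had enough counts to be tested. Foxp3, which encodes the factor that defines Tregs, stood at 0.726 and 19.6 CPM (counts scaled to a common library size) in the tMCAO brain libraries, at 0.538 and 5.18 CPM in the tMCAO blood libraries and at 50.1 and 60.7 CPM in the sham blood libraries. The first tMCAO brain library and the first tMCAO blood library thus went against their label, and results are also given without them. Foxp3 was also lower in the second library of each tMCAO group than in sham blood. Results without the first libraries are therefore not free of this limit. A list of 17 T cell markers took 0.0303% and 0.156% of counts for tMCAO brain, 0.0681% and 0.450% for tMCAO blood and 0.921% and 0.895% for sham blood. A list of 16 microglia markers took 1.03% and 1.076% for tMCAO brain, 0.0730% and 0.0804% for tMCAO blood and 0.0319% and 0.0410% for sham blood. A list of 17 monocyte and macrophage markers took 3.97% and 1.88% for tMCAO brain, 3.66% and 1.73% for tMCAO blood and 0.835% and 0.685% for sham blood. For 10 neutrophil markers the shares were 0.173% and 0.0239% for tMCAO brain, 0.0295% and 0.727% for tMCAO blood and 0.00135% and 0.00178% for sham blood. For 9 markers of border and perivascular macrophages they were 0.375% and 0.0414%, 0.277% and 0.102%, and 0.0566% and 0.0663% in those groups. All 17 T cell markers and all 17 monocyte and macrophage markers were detected in each of the 6 libraries. Genes of red cells took 0.00472% and 0.00807% for tMCAO brain, 0.112% and 3.86% for tMCAO blood and 15.9% and 17.5% for sham blood. In these bulk libraries, fewer cells of a type and less RNA per cell cannot be told apart, and the part of these other cell types in the results that follow was not tested.

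CPM are scaled to the library size after trimmed mean of M-values (TMM) normalisation, and differences are log2 values with a standard error (SE) from edgeR's quasi-likelihood test across all 16657 genes. A gene was called where the Benjamini-Hochberg adjusted p was under 0.05. Of the 8 members, 6 passed the filter on low counts, and Irs1 and Igfbp7 did not. Setting tMCAO brain beside tMCAO blood asks how cells in the injured brain differ from those in blood of tMCAO mice. In it 2 members were called higher and 0 lower, beside 3.53% and 1.37% of all genes (4.90% in either direction). Setting tMCAO blood beside sham blood asks how blood cells differ with the artery occlusion and with any difference in day after surgery. In it 1 member was called higher and 1 lower, beside 4.33% and 3.15% of all genes (7.48% in either direction). Setting tMCAO brain beside sham blood mixes site with occlusion and with any difference in day. In it 2 members were called higher and 1 lower, beside 8.01% and 2.62% of all genes (10.6% in either direction). Each comparison shares a group with the other two. Scaling libraries to the microglia or T cell markers moved the median of all genes to between -4.91 and 3.97 and turned the sign of 22 of the differences described. Relative to that median, 21 of the 22 had the sign they had with TMM. Such a scaling shifts all genes nearly alike, so subtracting the median largely restores the TMM value by construction. Values given below relative to the median are therefore not a separate check of the TMM results.

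Groups whose libraries do not overlap were common among all genes. Among the 6 tested members, brain and tMCAO blood libraries did not overlap for 3 that were higher and 1 that was lower in brain, beside 31.4% and 25.9% of all genes (57.3% in either direction). The tMCAO and sham blood libraries did not overlap for 2 higher and 3 lower tested members, beside 33.6% and 30.4% (64.0% in either direction). Brain and sham blood libraries did not overlap for 3 higher and 3 lower tested members, beside 34.9% and 29.7% (64.6% in either direction). Igfbp7, which was not tested, was also higher in both brain libraries than in any blood library.

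**Figure D1:**
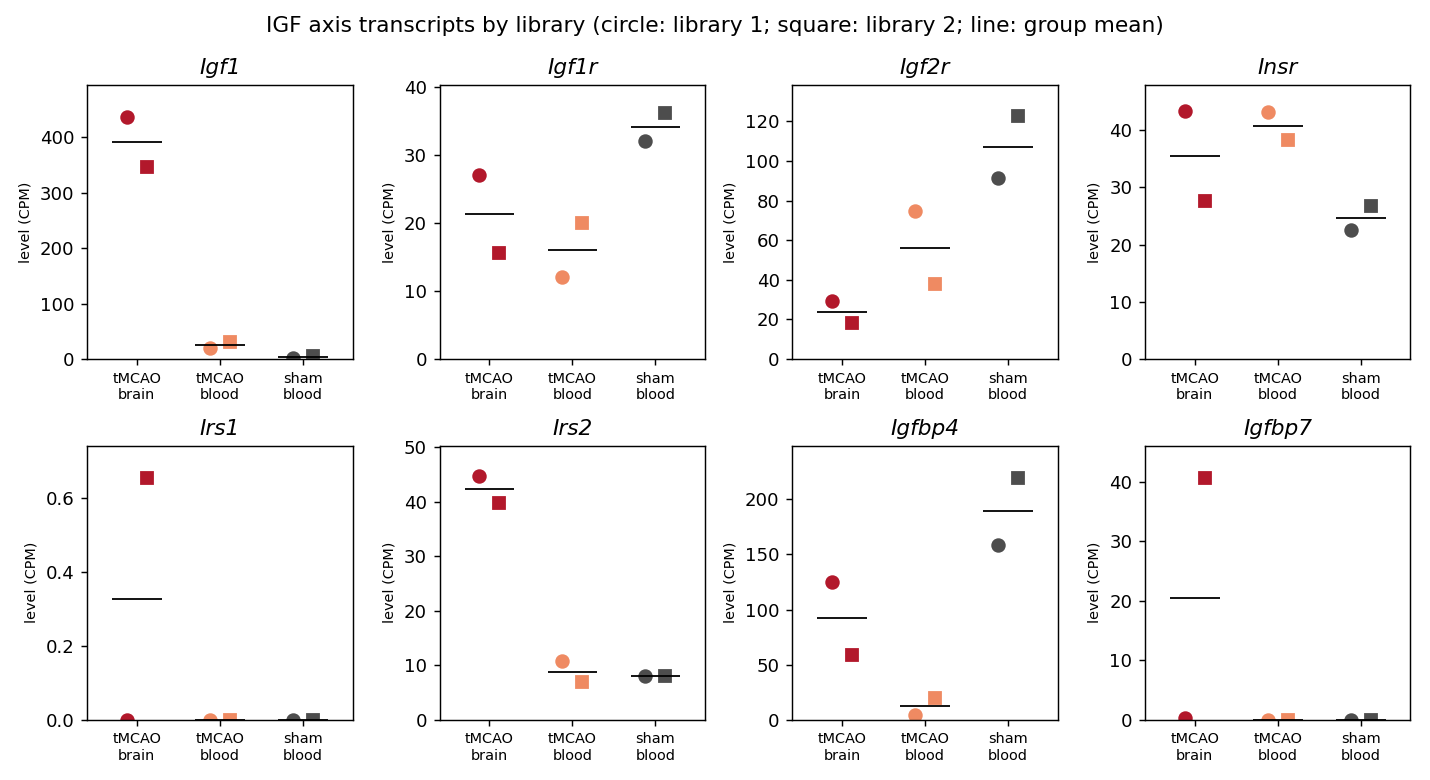
Level of each of the 8 members in every library, in CPM on a linear axis, with tMCAO brain, tMCAO blood and sham blood from left to right in each panel and 1 point a library. Igf1 and Irs2 sat highest in tMCAO brain, Igfbp4 lowest in tMCAO blood, and Igfbp7 was detected in the brain libraries alone.

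Igf1, the ligand gene (ENSMUSG00000020053.18, GRCm38 chr10:87858265-87937042, plus strand), had the widest fold range of the 6 tested members. It stood at 436 and 346 CPM for tMCAO brain, 19.1 and 30.4 CPM for tMCAO blood and 2.50 and 6.05 CPM for sham blood, from 7213, 8479, 355, 610, 39 and 86 counts in the same order. Both brain libraries were above both tMCAO blood libraries, and these were above both sham blood libraries. Igf1 in tMCAO brain was 15.8-fold above tMCAO blood (log2 difference 3.98 ± 0.52 SE, edgeR adjusted p = 0.0230). Its level in tMCAO blood was 5.79-fold above that in sham blood (2.53 ± 0.50, edgeR adjusted p = 0.0412). Against sham blood, the brain libraries were 91.5-fold higher (6.52 ± 0.59, edgeR adjusted p = 0.00841).

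Each of the 3 Igf1 calls was lost without at least 1 library. The call between tMCAO brain and tMCAO blood was lost without any 1 of the 6 libraries, at adjusted p of 0.0552 to 0.0660 in edgeR, and with only these 2 groups in the fit (0.0585). The call between tMCAO blood and sham blood was also lost without any 1 library (0.0521 to 0.235), and with libraries scaled to the T cell markers (0.0761). Between tMCAO brain and sham blood it ended without sham blood library 1 (0.0989) or 2 (0.0926) and was kept without each of the other 4. With library 2 of each tMCAO group and both sham blood libraries, the 3 Igf1 log2 differences were 3.44, 2.88 and 6.32, at adjusted p of 0.00622, 0.00597 and 0.000141 in edgeR. In that fit the spread comes from the sham blood pair alone, and the lone libraries are assumed to vary like it.

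Igf1 and the summed share of the microglia markers were both higher in each brain library than in any of the 4 blood libraries. Between the blood groups the markers were split. Csf1r and Trem2 had their higher values with tMCAO, as Igf1 did, whereas P2ry12 and Gpr34 had theirs with the sham operation. All 16 microglia markers were detected in both brain libraries, 13 and 14 for tMCAO blood and 12 and 14 for sham blood. Sall1, a transcription factor of microglia, had 0 counts in all 4 blood libraries. P2ry12, the ADP receptor of microglia that platelets also carry, stood at 431 and 523 CPM for tMCAO brain, 15.8 and 26.4 CPM for tMCAO blood and 57.3 and 75.4 CPM for sham blood. Tmem119, a microglial membrane protein, stood at 150 and 188 CPM for tMCAO brain, 9.64 and 1.94 CPM for tMCAO blood and 0.257 and 2.46 CPM for sham blood.

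Per 1000 counts of the microglia markers, Igf1 had 35.3 and 32.2 counts for tMCAO brain, 25.2 and 45.6 for tMCAO blood and 8.04 and 14.6 for sham blood. On that scale the brain libraries lay within the range of the tMCAO blood libraries, and all 4 lay above sham blood. Csf1r, a receptor gene that is also on the monocyte and macrophage list, made up 13.9% and 11.4% of the microglia marker counts for tMCAO brain, 71.4% and 70.7% for tMCAO blood and 33.2% and 31.7% for sham blood. Over the other 15 markers, chosen after the values were seen, Igf1 had 41.1 and 36.4 counts per 1000 for tMCAO brain, 88.2 and 156 for tMCAO blood and 12.04 and 21.4 for sham blood. Without Csf1r the brain libraries were thus below both tMCAO blood libraries and above both sham blood libraries. With libraries scaled to all 16 markers, the Igf1 log2 difference between tMCAO brain and tMCAO blood was -0.066 ± 0.45 (edgeR adjusted p = 0.893). The same scaling moved the median of all genes to -3.94, and relative to that median Igf1 was 3.88 higher in brain. With libraries scaled to the T cell markers the difference was 5.34 (adjusted p = 0.196 in edgeR), 4.27 above a median of 1.07. Per 1000 counts of the monocyte and macrophage markers, Igf1 had 9.15 and 18.5 counts for tMCAO brain, 0.502 and 2.12 for tMCAO blood and 0.307 and 0.876 for sham blood. There the brain libraries stood apart from both blood groups, which overlapped.

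**Figure D2:**
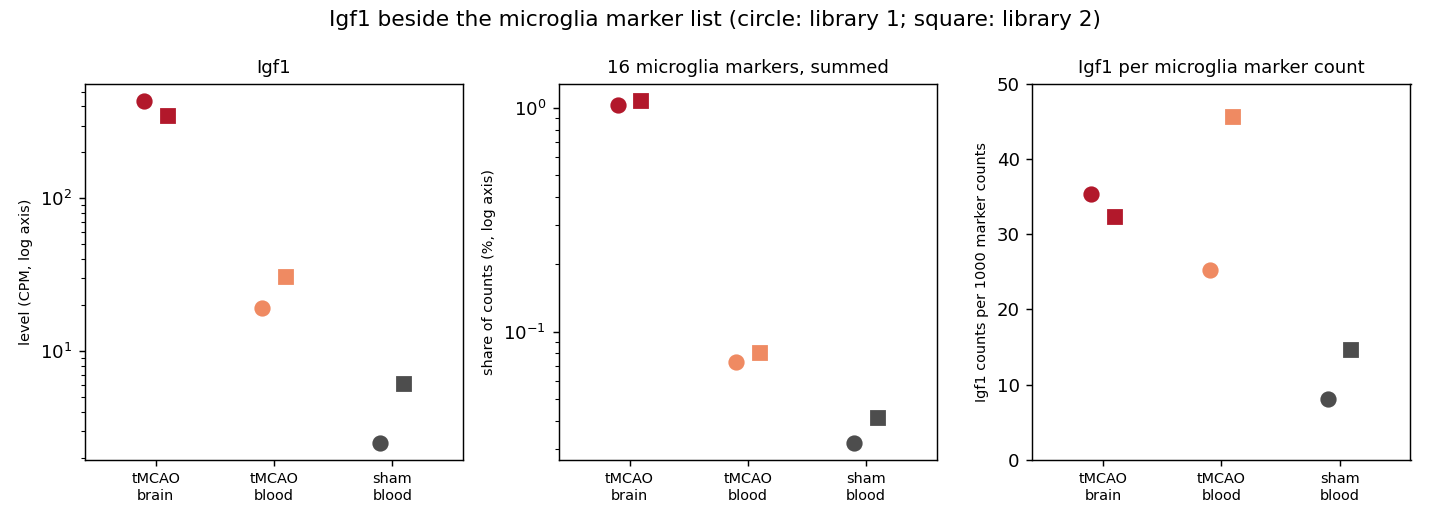
Left, Igf1 in CPM; middle, share of counts taken by the 16 microglia markers in percent (both on log axes); right, Igf1 counts per 1000 counts of those markers on a linear axis, for each of the 6 libraries. In the right panel tMCAO brain, at 35.3 and 32.2, lies between the tMCAO blood values of 25.2 and 45.6, and sham blood is at 8.04 and 14.6. The tMCAO blood marker counts were 71.4% and 70.7% Csf1r, without which the tMCAO blood values are 88.2 and 156 and the brain values 41.1 and 36.4.

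The other ligand genes were near the limit of detection. Igf2, the second growth factor gene, had 5 counts in tMCAO brain library 2 and 0 in the other 5 libraries. Ins2, an insulin gene, had 0 and 19 counts for tMCAO brain, 0 and 0 for tMCAO blood and 3 and 13 for sham blood. Ins1, the other insulin gene, had 2 counts in tMCAO blood library 2 and 0 elsewhere. A count of 0 allows up to 3 counts, which is 0.123 to 0.211 CPM in these libraries, and such limits cover counting error only. Igf1os, a gene whose span overlaps that of Igf1, had 10.4 and 0.245 CPM for tMCAO brain and 0 for each of the 4 blood libraries, and how reads were assigned by strand is not given in the sources used here.

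The receptors differed less than the ligand, and 1 of the 9 receptor comparisons was called. Igf2r (ENSMUSG00000023830.14, GRCm38 chr17:12682406-12769664, minus strand) stood at 29.2 and 18.0 CPM for tMCAO brain, 74.7 and 37.8 CPM for tMCAO blood and 91.5 and 122.9 CPM for sham blood. The 3 groups did not overlap, with brain lowest and sham blood highest. Igf2r was 4.54-fold lower in tMCAO brain than in sham blood (log2 difference -2.18 ± 0.44, edgeR adjusted p = 0.0346). The steps to either side of tMCAO blood were not called, at -1.25 ± 0.43 where brain was set against tMCAO blood (edgeR adjusted p = 0.125) and -0.93 ± 0.43 where tMCAO blood was set against sham blood (edgeR adjusted p = 0.203).

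Leaving out sham blood library 1 (adjusted p = 0.134 in edgeR) or 2 (0.179) ended the Igf2r call, as did leaving out tMCAO brain library 1 (0.0785) or 2 (0.101). Restricted to library 2 of each tMCAO group, with both sham blood libraries, it was -2.59 (edgeR adjusted p = 0.00128). The step between tMCAO blood and sham blood was called in that restricted fit, at -1.46 (edgeR adjusted p = 0.0157). With libraries scaled to the T cell markers, the difference between tMCAO brain and sham blood was 1.95 (edgeR adjusted p = 0.243) where the median of all genes was 3.97, and so -2.03 relative to it. Airn, a noncoding transcript whose span overlaps Igf2r, was between 0.123 and 9.99 CPM over the 6 libraries.

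Igf1r (ENSMUSG00000005533.10, GRCm38 chr7:67952827-68233668, plus strand), the kinase receptor for the ligand, stood at 27.1 and 15.6 CPM for tMCAO brain, 12.1 and 19.98 CPM for tMCAO blood and 32.0 and 36.1 CPM for sham blood. The brain and tMCAO blood libraries overlapped, and all 4 lay below sham blood. The log2 difference between tMCAO brain and tMCAO blood was 0.41 ± 0.40, with a 95% interval from -0.57 to 1.38 (edgeR adjusted p = 0.539). It was -1.09 ± 0.41 between tMCAO blood and sham blood (edgeR adjusted p = 0.139) and -0.68 ± 0.40 between tMCAO brain and sham blood (edgeR adjusted p = 0.314). None of the 3 was called. Restricted to library 2 of each tMCAO group, with both sham blood libraries, the last was -1.15 and was called (edgeR adjusted p = 0.0331).

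Insr (ENSMUSG00000005534.10, GRCm38 chr8:3122061-3279617, minus strand), the insulin receptor gene, stood at 43.3 and 27.7 CPM for tMCAO brain, 43.2 and 38.2 CPM for tMCAO blood and 22.5 and 26.7 CPM for sham blood. Brain and tMCAO blood overlapped, and sham blood was lowest. The log2 difference was -0.20 ± 0.31 between tMCAO brain and tMCAO blood, with a 95% interval from -0.95 to 0.56 (edgeR adjusted p = 0.707). It was 0.73 ± 0.31 between tMCAO blood and sham blood (edgeR adjusted p = 0.183) and 0.53 ± 0.31 between tMCAO brain and sham blood (edgeR adjusted p = 0.314). Insrr, the receptor gene related to Insr, had 0 to 6 counts a library and was not tested.

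Ratios within a library, which no scaling of libraries changes, set the receptors against each other and against the ligand. These ratios use CPM per kb of annotated exon. Igf1 over Igf1r was 27.3 and 37.7 for tMCAO brain, 2.67 and 2.58 for tMCAO blood and 0.133 and 0.284 for sham blood. The ligand transcript was thus above its receptor transcript in the 4 tMCAO libraries and below it in both sham blood libraries. Insr over Igf1r was 1.95 and 2.17 for tMCAO brain, 4.36 and 2.34 for tMCAO blood and 0.859 and 0.905 for sham blood. Insr was above Igf1r in the 4 tMCAO libraries and below it in both sham blood libraries. Igf2r over Igf1r was 1.94 and 2.09 for tMCAO brain, 11.1 and 3.41 for tMCAO blood and 5.15 and 6.14 for sham blood, lowest in brain. These ratios are given as values and were not tested.

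Igfbp4 (ENSMUSG00000017493.12, GRCm38 chr11:99041244-99054392, plus strand), the high-affinity binding protein gene, fell in blood after tMCAO. It stood at 125 and 59.2 CPM for tMCAO brain, 4.31 and 19.9 CPM for tMCAO blood and 159 and 220 CPM for sham blood. The 3 groups did not overlap, with tMCAO blood lowest and sham blood highest. Igfbp4 in tMCAO blood was 15.6-fold below sham blood (log2 difference -3.96 ± 0.80, edgeR adjusted p = 0.0424). Set against tMCAO blood, brain differed by 2.92 ± 0.77, a 7.59-fold higher value that was not called (edgeR adjusted p = 0.0768). It was -1.04 ± 0.72 between tMCAO brain and sham blood (edgeR adjusted p = 0.387).

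The call between tMCAO blood and sham blood was lost without sham blood library 1 (adjusted p = 0.172 in edgeR) or 2 (0.242), tMCAO blood library 1 (0.0920) or tMCAO brain library 1 (0.0508). The difference between tMCAO brain and tMCAO blood passed the threshold in DESeq2 (adjusted p = 0.00141), in limma-voom (0.0464) and without the filter on low counts (2.69e-10). Restricted to library 2 of each tMCAO group, with both sham blood libraries, the Igfbp4 log2 differences were 1.503 (brain over tMCAO blood), -3.20 (tMCAO blood over sham blood) and -1.70 (brain over sham blood). All 3 were called there, at adjusted p of 0.0232, 0.00210 and 0.00632 in edgeR. Leaving out library 1 of each tMCAO group thus took the difference between brain and tMCAO blood from 2.92 to 1.503.

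T cell marker shares were lower in the 4 tMCAO libraries than in sham blood. Per 1000 counts of the T cell markers, Igfbp4 had 343 and 37.9 counts for tMCAO brain, 6.08 and 5.34 for tMCAO blood and 17.6 and 24.3 for sham blood. The tMCAO blood libraries remained the lowest on that scale, and brain was the highest. With libraries scaled to the T cell markers, the difference between tMCAO blood and sham blood was -1.88 (edgeR adjusted p = 0.319), beside a median of 2.97 over all genes, and so -4.85 relative to it. Igfbp4 over Igf1 per kb of exon was 0.642 and 0.384 for tMCAO brain, 0.505 and 1.47 for tMCAO blood and 142 and 81.4 for sham blood.

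Igfbp7 (ENSMUSG00000036256.13, GRCm38 chr5:77349240-77408041, minus strand) was found in brain libraries alone and mostly in 1. It had 5 and 994 counts in tMCAO brain, or 0.302 and 40.6 CPM, and 0 in all 4 blood libraries. Summed over the group, tMCAO brain was at least 314-fold higher than tMCAO blood and at least 242-fold higher than sham blood, against a floor of 3 counts over the 2 blood libraries compared. Taking brain library 1 alone, the bounds were at least 3.90-fold and at least 3.004-fold, so the size rests on library 2. Polr2b, an RNA polymerase subunit gene whose span overlaps Igfbp7, was read in all 6 libraries at 45.7 to 95.3 CPM, including those in which Igfbp7 was at 0.

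Igfbp2, Igfbp3 and Igfbp5, which encode other high-affinity binding proteins, were likewise highest in tMCAO brain library 2. Igfbp2 had 1.63 and 42.9 CPM for tMCAO brain and 0 for each of the 4 blood libraries. Summed over the brain libraries it was at least 338-fold higher than tMCAO blood and at least 261-fold higher than sham blood over the same floor, and at least 21.04-fold and 16.2-fold from library 1 alone. Igfbp5 had 1.75 and 20.96 CPM for tMCAO brain, 0 and 0.0997 CPM for tMCAO blood, and 0 for both sham blood libraries. Its ratio of tMCAO brain to tMCAO blood was 255, from 29 and 513 counts against 2 in all, with an exact 95% counting interval from 70.4 to 2114. Against sham blood it was at least 131-fold higher, and at least 17.4-fold from brain library 1 alone. These bounds and this interval leave out the spread between the 2 brain libraries. Igfbp2 and Igfbp5 were tested and were not called against tMCAO blood (edgeR adjusted p = 0.0889 and 0.0754). Nor were they called against sham blood (edgeR adjusted p = 0.0788 and 0.0523). Igfbp3 had 0 and 1.59 CPM for tMCAO brain and 0 elsewhere. Igfbp6, which prefers IGF2, was higher in both tMCAO groups than in sham blood without passing the test, with 11.6 and 2.29 CPM for tMCAO brain, 19.4 and 7.37 CPM for tMCAO blood and 0.578 and 0 CPM for sham blood. Igfbp1 had 0 counts in every library. Pappa, whose protease cleaves IGFBP4, had 2 counts in tMCAO brain library 1 and 0 in the other 5.

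Markers of pericytes, smooth muscle and fibroblasts stood beside these values. The 14 markers took 0.00197% and 0.0377% of counts for tMCAO brain, 0.00154% and 0.00482% for tMCAO blood and 0.0241% and 0.0271% for sham blood, and 13, 14, 5, 8, 6 and 3 of them were detected in those libraries. The sham blood share was almost all Myl9, at 233 and 273 CPM, a myosin light chain gene that platelets also express. Dcn, which encodes the matrix proteoglycan decorin, stood at 4.05 and 184 CPM for tMCAO brain and 0 for each of the 4 blood libraries. Lum, for the related lumican, stood at 0.0605 and 63.6 CPM for tMCAO brain and 0 for each of the 4 blood libraries. Thus Dcn, Lum and Igfbp7 were all far higher in brain library 2 than in library 1, and all at 0 in blood. The 14 markers did not all follow them. Cspg4 had 11.6 and 11.7 CPM for tMCAO brain. Acta2 (4.60 and 0.327 CPM), Myl9 (0.423 and 0.0408), Abcc9 (0.242 and 0.163) and Tagln (0.0605 and 0.0408) were lower in brain library 2. The other markers were higher in brain library 2, Col1a2 at 1.15 and 44.0 CPM among them. The part of stromal cells in the Igfbp7 result was not tested. The 13 endothelial markers took 0.00569% and 0.00500% for tMCAO brain, 0.00731% and 0.0156% for tMCAO blood and 0.0491% and 0.0482% for sham blood, and Cldn5, the claudin of brain endothelium, had 0.0605 and 0 CPM in tMCAO brain.

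**Figure D3:**
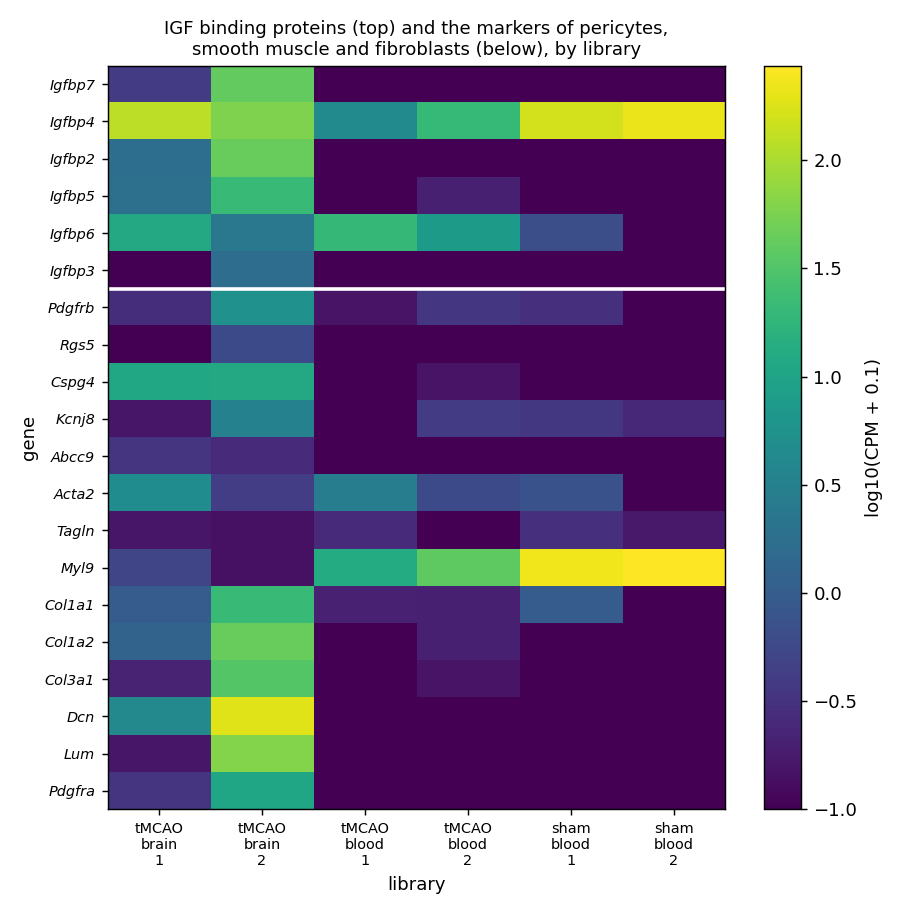
Heat map of 6 binding protein genes (above the white line) and the 14 markers of pericytes, smooth muscle and fibroblasts (below it), 1 column a library, with log10 of CPM plus 0.1 as colour. Igfbp7, at 40.6 CPM in tMCAO brain library 2, and Dcn, at 184 CPM, were both highest in that library and at 0 in all 4 blood libraries.

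Irs2 (ENSMUSG00000038894.7, GRCm38 chr8:10984681-11008458, minus strand), a docking protein for the activated insulin and IGF1 receptors, rose in brain. It stood at 44.6 and 39.8 CPM for tMCAO brain, 10.7 and 6.88 CPM for tMCAO blood and 7.96 and 8.09 CPM for sham blood. Both brain libraries were above all 4 blood libraries, and the 2 blood groups overlapped. Irs2 in tMCAO brain was 4.80-fold above tMCAO blood (log2 difference 2.26 ± 0.35, edgeR adjusted p = 0.0294). Against sham blood, brain was 5.26-fold higher (2.39 ± 0.35, edgeR adjusted p = 0.0158). The 2 blood groups differed by 0.13 ± 0.33 (edgeR adjusted p = 0.821).

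The Irs2 call between tMCAO brain and tMCAO blood was kept without tMCAO blood library 1 (adjusted p = 0.0487 in edgeR) and lost without each of the other 5 libraries (0.0644 to 0.0974) and with only these 2 groups in the fit (0.0835). With libraries scaled to the microglia markers this difference was -1.74 (edgeR adjusted p = 0.00874), which is 2.20 above the median of all genes, and scaled to the T cell markers it was 3.13 (edgeR adjusted p = 0.492), 2.06 above the median. The call between tMCAO brain and sham blood was lost without sham blood library 1 (0.133) or 2 (0.136) or tMCAO brain library 1 (0.0589). Restricted to library 2 of each tMCAO group, with both sham blood libraries, the brain was 2.46 above tMCAO blood and 2.29 above sham blood on the log2 scale (adjusted p = 0.0105 and 0.00282 in edgeR). Irs2 over Insr per kb of exon was 2.24 and 3.13 for tMCAO brain, 0.539 and 0.391 for tMCAO blood and 0.768 and 0.658 for sham blood.

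Irs1 (ENSMUSG00000055980.2, GRCm38 chr1:82233101-82291416, minus strand), the other main substrate gene, had 0 and 16 counts in tMCAO brain and 0 in all 4 blood libraries. The 16 counts are 0.654 CPM in tMCAO brain library 2. Summed over the brain libraries this was at least 5.03-fold higher than tMCAO blood and at least 3.87-fold higher than sham blood over the floor of 3 counts, with nothing detected in brain library 1. Of Irs1 and Irs2, only Irs2 was detected in every library.

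**Figure D4:**
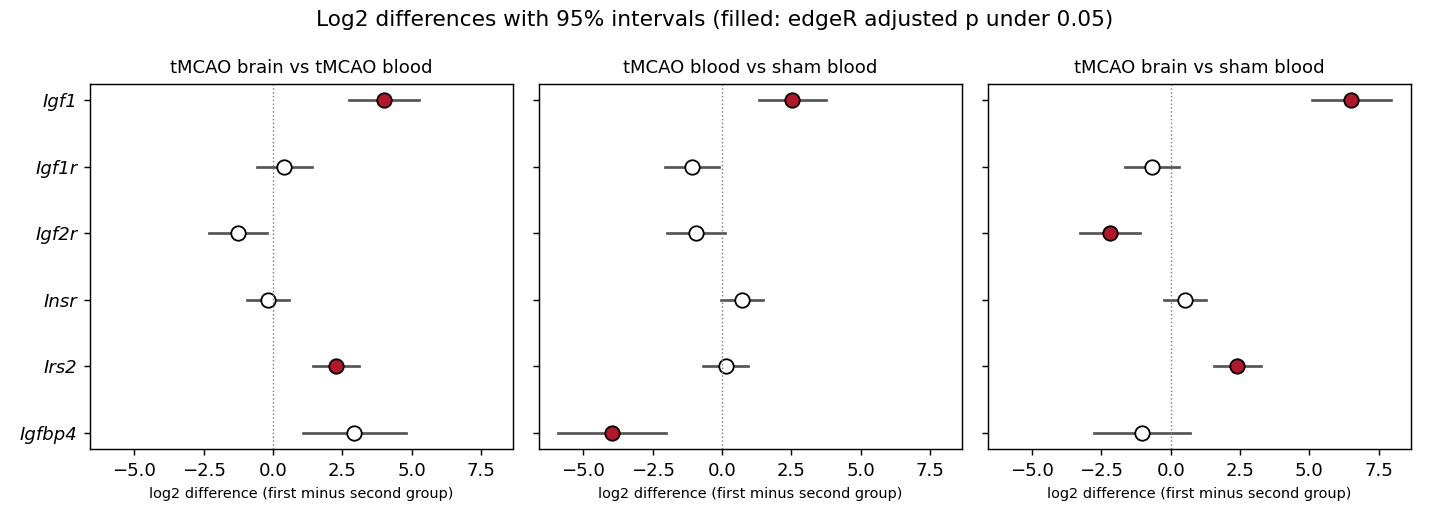
Log2 difference of the 6 tested members in each of the 3 comparisons, with 95% intervals from edgeR's quasi-likelihood fit; filled points passed an adjusted p of 0.05. Igf1 was called in all 3 comparisons, Irs2 in both comparisons of brain, Igf2r in tMCAO brain against sham blood and Igfbp4 in tMCAO blood against sham blood.

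Ranked by mean CPM per kb of exon, the members took a different order in each group. In tMCAO brain Igf1 came first, at 44.1 and 35.0 CPM per kb, above Igfbp4 at 28.3 and 13.4. Igfbp4, Igfbp7 (0.250 and 33.6) and Irs2 (7.06 and 6.30) followed in mean order, with Igfbp7 overlapping both neighbours. Insr and Igf2r overlapped below Igf1, Igfbp4 and Irs2, and Igf1r and then Irs1 came last in mean order. The lower Igfbp7 library lay below both Igf1r libraries. In tMCAO blood Igf2r came first, at 8.03 and 4.06 CPM per kb. Its lower library was within the range of Igfbp4, which ranked below Insr with 0.9753 and 4.51 CPM per kb and overlapped Insr (3.14 and 2.78) and Igf1 (1.93 and 3.07). Irs2 (1.69 and 1.09) and Igf1r (0.721 and 1.19) overlapped below Igf2r, Insr and Igf1. The lower Igfbp4 library lay within the range of Igf1r. In sham blood Igfbp4 came first, at 35.9 and 49.7 CPM per kb, above Igf2r at 9.83 and 13.2. Igf1r and Insr overlapped, Irs2 followed, and Igf1 was the lowest of the detected members at 0.253 and 0.611 CPM per kb.

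The genes whose profile was most like that of each member were found by Pearson correlation of log2 CPM over the 6 libraries, among tested genes that averaged 20 CPM or more. With 3 groups of 2 libraries such correlations are high for many genes and are given as a description. For Igf1 the 3 closest of 6473 genes were Rasgef1b, a Ras-family exchange factor gene (r = 0.999), Cp, for ceruloplasmin (0.995), and Itgb5, an integrin subunit gene (0.991), and 5.27% of the pool had r above 0.9. For Irs2 they were Fosb, an immediate early transcription factor gene (0.999), Slc38a2, an amino acid transporter gene (0.997), and Pld3 (0.997), with 6.39% above 0.9. Fosb stood at 199 and 137 CPM for tMCAO brain, 1.99 and 0.548 CPM for tMCAO blood and 0.834 and 0.704 CPM for sham blood. For Igfbp4 they were Lcp1, an actin-bundling protein gene of leukocytes (0.997), Sting1, the receptor gene for cyclic dinucleotides (0.994), and Ilvbl (0.994), with 3.99% above 0.9.

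For Igf1r the closest was Sesn1, for sestrin 1, an inhibitor of mTORC1 (r = 0.994), followed by Terf2ip (0.984) and Tubgcp4 (0.981), with 1.82% of the pool above 0.9. Sesn1 stood at 136 and 57.5 CPM for tMCAO brain, 31.0 and 76.8 CPM for tMCAO blood and 232 and 292 CPM for sham blood. For Igf2r they were Hsd17b10 (0.989), Atp1b3, a sodium pump subunit gene (0.988), and Trappc6a (0.984), with 1.95% above 0.9. For Insr they were Flvcr1, a haem exporter gene (0.997), Cd163, the haemoglobin scavenger receptor gene of macrophages (0.991), and Pank3 (0.988), with 2.32% above 0.9. Cd163 stood at 127 and 0.899 CPM for tMCAO brain, 40.1 and 23.3 CPM for tMCAO blood and 0 and 0.422 CPM for sham blood. Insr and Cd163 were both lower in library 2 than in library 1 of tMCAO brain, and both lowest in sham blood.

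The wider pathway was read from lists of 57 further genes of IGF and insulin signalling, of which 43 were tested. Between tMCAO brain and tMCAO blood 1 was called higher and 0 lower. Between tMCAO blood and sham blood 3 were called higher and 1 lower, and between tMCAO brain and sham blood 6 were called higher and 0 lower. The median log2 difference of the 43 was 0.15, 0.28 and 0.32 in the 3 comparisons, beside 0.06, 0.11 and 0.09 over all genes tested. The 1, 4 and 6 genes called make 2.33%, 9.30% and 14.0% of the 43, beside 4.90%, 7.48% and 10.6% of all genes.

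Among adaptors, Sh2b2, which binds activated receptors, stood at 27.6 and 30.1 CPM in tMCAO brain against 2.76 and 1.97 CPM in sham blood (log2 difference 3.60 ± 0.56, edgeR adjusted p = 0.0186). Grb2, the adaptor that links receptors to Ras, stood at 75.0 and 88.6 CPM for tMCAO brain, 94.2 and 100.3 CPM for tMCAO blood and 38.4 and 23.7 CPM for sham blood. It was above sham blood in tMCAO brain (1.40 ± 0.31, edgeR adjusted p = 0.0429) and in tMCAO blood (1.65 ± 0.32, edgeR adjusted p = 0.0395). Shc1, the adaptor gene with the next highest mean CPM, had 25.2 and 31.0 CPM for tMCAO brain, 23.1 and 27.7 CPM for tMCAO blood and 21.4 and 28.3 CPM for sham blood, and the groups overlapped. Of 8 adaptor genes tested, Irs2 included, 1, 1 and 3 were called higher in the 3 comparisons and 0 were called lower. Of all genes, 3.53%, 4.33% and 8.01% were called higher and 1.37%, 3.15% and 2.62% lower. The adaptor called between tMCAO brain and tMCAO blood was the member Irs2.

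In the PI3K and AKT branch all 23 genes were tested. Of them 0 were called between tMCAO brain and tMCAO blood, beside 4.90% of all genes. Between tMCAO blood and sham blood Akt1, a kinase downstream of PI3K, was higher, at 93.0 and 72.9 CPM in tMCAO blood against 24.9 and 20.6 CPM in sham blood (1.87 ± 0.30, edgeR adjusted p = 0.0319). Rictor, the scaffold of mTOR complex 2, was lower, at 50.2 and 50.7 CPM in tMCAO blood against 114 and 136 CPM in sham blood (-1.31 ± 0.25, edgeR adjusted p = 0.0391). Between tMCAO brain and sham blood 3 genes were higher. Pik3cb, a PI3K catalytic subunit gene, stood at 43.5 and 33.0 CPM in tMCAO brain against 6.48 and 5.56 CPM in sham blood (2.67 ± 0.38, edgeR adjusted p = 0.0150). Pik3cg, the leukocyte PI3K catalytic subunit gene, stood at 88.1 and 72.5 CPM in tMCAO brain against 32.3 and 27.7 CPM in sham blood (1.42 ± 0.25, edgeR adjusted p = 0.0253). The other was Rptor, the scaffold of mTOR complex 1, at 37.0 and 29.0 CPM in tMCAO brain against 13.4 and 10.1 CPM in sham blood (1.49 ± 0.32, edgeR adjusted p = 0.0387). By mean CPM, which takes no account of gene length, the highest genes of the branch were Rheb, the GTPase that activates mTOR complex 1, at 171 and 188 CPM for tMCAO brain, 151 and 98.9 CPM for tMCAO blood and 109 and 112 CPM for sham blood, and Pik3r1, a PI3K regulatory subunit gene, at 103 and 166, 51.8 and 83.4, and 119 and 145 CPM in those groups.

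Among the brakes, Socs3, a feedback inhibitor that also acts on insulin receptor signalling, stood at 91.1 and 135 CPM for tMCAO brain, 18.0 and 10.9 CPM for tMCAO blood and 31.8 and 74.8 CPM for sham blood. The groups did not overlap, and tMCAO blood was lowest. Brain was above tMCAO blood (2.96 ± 0.52, edgeR adjusted p = 0.0372). The differences of 1.082 between tMCAO brain and sham blood (edgeR adjusted p = 0.198) and -1.88 between tMCAO blood and sham blood (edgeR adjusted p = 0.0701) were not called. Inpp5d, the leukocyte inositol phosphatase SHIP1, stood at 166 and 182 CPM for tMCAO brain, 147 and 138 CPM for tMCAO blood and 67.7 and 59.9 CPM for sham blood. It was higher than sham blood in tMCAO brain (1.45 ± 0.25, edgeR adjusted p = 0.0241) and in tMCAO blood (1.16 ± 0.25, edgeR adjusted p = 0.0481). Ptpn1, a tyrosine phosphatase of the insulin receptor, had 225 and 139 CPM for tMCAO brain, 454 and 233 CPM for tMCAO blood and 140.0 and 142 CPM for sham blood, and was not called in any comparison.

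Each of these calls on pathway genes was lost without at least 1 library. Socs3 was lost without any 1 library, at edgeR adjusted p of 0.0677 to 0.106. The calls between tMCAO blood and sham blood were lost without sham blood library 1 or 2, at 0.172 to 0.315, and without tMCAO blood library 1, at 0.0920 to 0.109. The calls between tMCAO brain and sham blood were lost without sham blood library 1 or 2, at 0.125 to 0.241, and without tMCAO brain library 1, at 0.0528 to 0.133. Library 2 of either tMCAO group also decided some of them: without tMCAO brain library 2, Grb2, Inpp5d and Rptor were lost against sham blood, at 0.108, 0.0615 and 0.0645. Without tMCAO blood library 2, the tMCAO blood calls of Grb2, Inpp5d and Rictor were lost, at 0.0634, 0.0589 and 0.0545. Without tMCAO brain library 1 or 2, the tMCAO blood calls of Inpp5d and Rictor were lost (0.0516 to 0.0618), as was that of Grb2 without brain library 2 (0.0516). The tMCAO blood calls of Akt1, Grb2 and Inpp5d were also lost with libraries scaled to the microglia markers (log2 0.84, 0.60 and 0.15, edgeR adjusted p = 0.112, 0.322 and 0.773) or to the T cell markers (4.90, 4.53 and 4.11, edgeR adjusted p = 0.0645, 0.0825 and 0.109). Scaled to the T cell markers, the calls of Rictor (1.60, edgeR adjusted p = 0.384) and Socs3 (3.57, edgeR adjusted p = 0.426) were lost too.

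**Figure D5:**
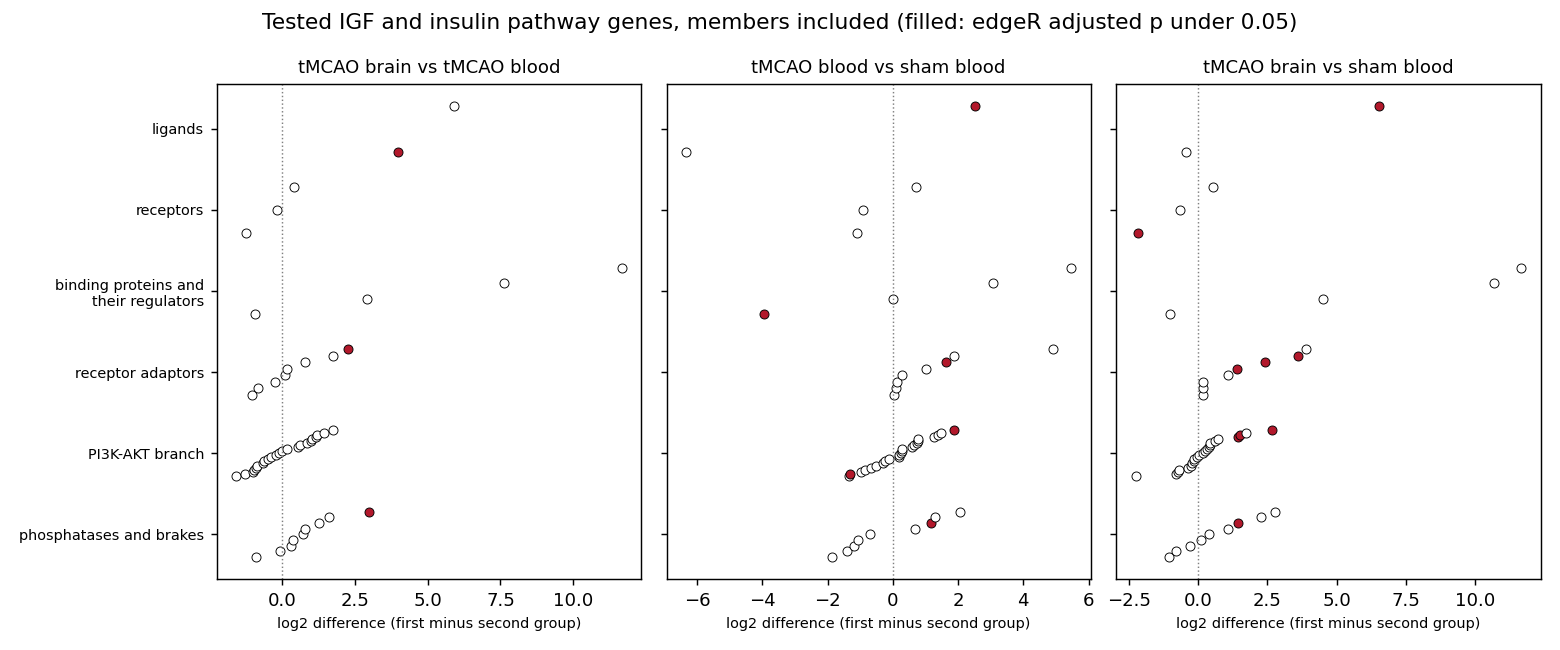
Log2 difference of each tested pathway gene by list in the 3 comparisons, 1 panel each; filled points were called at an adjusted p under 0.05 in edgeR, members are included, and fitted values of genes with 0 counts in a group depend on the prior count and are not bounds. The 43 genes that are not members had medians of 0.15, 0.28 and 0.32.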

How the data were processed

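Messenger RNA was measured in 6 libraries of 500 to 1000 sorted cells each, made per the labels' protocols with a SMART-Seq ultralow input kit and Nextera XT and read paired-end at 75 bp. No molecular identifiers are named, so intervals and floors speak of counting error alone. The authors deposited whole counts of reads per gene, for which the submitters' processing notes name STAR, HTSeq 0.11.2 and GRCm38. The annotation release and strand setting are not given in the sources used here. Initials in the column names were read as sham and tMCAO.

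From these counts, filterByExpr (minimum count 10) kept 16657 of 51361 genes. After TMM scaling, the quasi-likelihood test of edgeR (version 4.0.16, R 4.3.3) was run on all 6 libraries in 1 fit without covariates, which leaves 3 residual degrees of freedom. Benjamini-Hochberg adjustment covered all tested genes, separately in each of 3 comparisons. The SE of a log2 difference is its size over the square root of F. DESeq2 1.42.0 and limma 3.58.1 (voom) were alternatives, and the procedure was tested on simulated data. There it recovered 0%, 0% and 1.56% of 2-fold changes in the 3 comparisons, in the order given above. For 4-fold changes it recovered 25.8%, 23.8% and 12.9%, and for 16-fold changes 73.4%, 67.1% and 79.7%. A gene that was not called may therefore still differ by such amounts. Levels between genes use exon lengths of GENCODE M21, which held 97.3% of the symbols.

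The members and all gene lists were chosen with earlier results of these data known. The rule for named genes was the 8 members, up to 4 called pathway genes per comparison by smallest adjusted p, the 2 further genes of each list with the highest mean CPM, and the 3 genes most correlated with each tested member (prior count 2, predicted and unnamed genes left out). Rptor, the Grb2 result for tMCAO brain, the remaining binding protein genes, Ins1 and Pappa were added after their values were seen. A result that the rule would name is not reported here.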

Additional observations from a re-analysis of the deposited data

How the results depend on the processing

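In all, 16 alternatives were tried for each value, 15 of them planned. The added one, library 2 of each tMCAO group with both sham blood libraries, and all alternatives for single pathway genes were chosen after seeing the data. Genes called between tMCAO brain and tMCAO blood numbered 816 and became 3451 with DESeq2, 1446 with limma-voom, 3598 without the filter, 1237 with a stricter filter, 26 with the 2 groups alone, 412 scaled to T cell markers, 14066 scaled to microglia markers, 2932 in the added setting and 30 to 273 without 1 library. Between tMCAO blood and sham blood 1246 became 3806 with DESeq2, 3611 without the filter, 4357 scaled to microglia markers, 3577 in the added setting and 0 to 1455 without 1 library. Between tMCAO brain and sham blood 1772 became 4007 with DESeq2, 4458 without the filter, 2752 with the 2 groups alone, 8944 scaled to T cell markers, 14322 scaled to microglia markers, 4242 in the added setting and 0 to 2407 without 1 library. Members called between tMCAO brain and tMCAO blood numbered 2 and became 5 without the filter (Igfbp7 among them), 4 scaled to microglia markers, 0 scaled to T cell markers, 0 with the 2 groups alone and 0 to 1 without 1 library. Between tMCAO blood and sham blood 2 became 4 scaled to microglia markers, 0 scaled to T cell markers and 0 to 1 without 1 library. Between tMCAO brain and sham blood 3 became 6 scaled to microglia markers, 5 in the added setting and 0 to 3 without 1 library. Scaled to microglia markers, the 4 members called between tMCAO brain and tMCAO blood were all lower in brain, Irs2 among them, and Igf1 was not called. In the other 2 comparisons Igf1 alone was called higher under that scaling, and the rest of the members called were lower. Irs2 between tMCAO brain and sham blood thus turned from higher to lower (log2 -2.62, edgeR adjusted p = 0.00125). The causes of these shifts were not tested.

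Scaling to microglia markers moved the median of all genes to -3.94, -0.87 and -4.91 in the 3 comparisons, against 1.07, 2.97 and 3.97 for T cell markers. The split of calls into higher and lower was 588 and 228, 722 and 524, and 1335 and 437 with TMM, against 123 and 13943, 499 and 3858, and 158 and 14164 for microglia markers and 378 and 34, 1538 and 3, and 8885 and 59 for T cell markers. Such a scaling shifts all genes alike, and 22 values changed sign with it. Relative to the median of all genes, 21 of the 22 had the sign they had with TMM, and the largest gap to its relative TMM value was 0.353. The exception was Irs2 between tMCAO blood and sham blood, at -0.02 against 0.02. Because the shift is shared by all genes, these signs were nearly fixed in advance. They do not show that a result withstands the scaling. Scaled to microglia markers, tMCAO brain against tMCAO blood gave -0.066 for Igf1, -3.65 for Igf1r, -1.18 for Igfbp4, -1.74 for Irs2 and -1.01 for Socs3. Under it, tMCAO blood against sham blood gave -0.26 for Insr and -0.88 for Irs2, and tMCAO brain against sham blood gave -4.49 for Insr, -2.62 for Irs2, -3.66 for Grb2, -3.58 for Inpp5d, -2.37 for Pik3cb, -3.62 for Pik3cg, -3.56 for Rptor and -1.43 for Sh2b2. Scaled to T cell markers, tMCAO brain against tMCAO blood gave 0.94 for Insr, tMCAO blood against sham blood gave 1.57 for Igf1r, 2.28 for Igf2r and 1.60 for Rictor, and tMCAO brain against sham blood gave 3.48 for Igf1r, 1.95 for Igf2r and 3.18 for Igfbp4. Values that were not called also turned. Between tMCAO brain and tMCAO blood Igf1r was -0.43 in the added setting and -0.11 to 0.84 without 1 library (lowest without tMCAO brain library 1), and Insr was -0.63 to 0.089 (highest without tMCAO brain library 2). Between tMCAO blood and sham blood Irs2 was -0.17 in the added setting and -0.22 to 0.36 without 1 library (lowest without tMCAO blood library 1).

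The replicate numbers share only a number: the correlation of deviations of same-numbered libraries was 0.30 between tMCAO brain and tMCAO blood, -0.03 between tMCAO brain and sham blood, and -0.07 between tMCAO blood and sham blood. With the replicate number as a block, 803, 1318 and 1977 genes and 2, 2 and 3 members were called in the order of comparisons above, and the calls of Inpp5d between tMCAO blood and sham blood (adjusted p = 0.0629 in edgeR) and of Grb2 between tMCAO brain and sham blood (0.0508) were lost. Inpp5d was also lost there with DESeq2 size factors (0.0506). A count of 0 allows up to 3 counts in a library, which limits what can be said of Irs1 and of the ligand genes other than Igf1.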
